A study of Homo sapiens with 6 samples.

Results

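The genes described here are 10 carriers of amino acids across the plasma membrane, chosen by name from the transcript values, with the values of all transcripts of a gene identifier summed. They are SLC3A2, SLC7A5, SLC7A11, SLC7A1, SLC1A5, SLC1A4, SLC1A2, SLC1A3, SLC38A1 and SLC38A2, which are 10 of 36532 genes in the files. Their RNA was measured in 4 cell lines of atypical teratoid rhabdoid tumor (AT/RT), a malignant embryonal brain tumor marked by loss of SMARCB1, a core subunit of the SWI/SNF chromatin remodeling complex. Total RNA was sequenced as 125 bp paired ends in 6 libraries. CHLA 02 and CHLA 05 had 1 library each, while CHLA 04 and CHLA 06 were each sequenced as 2 technical replicates. All 4 lines were grown under the same conditions, in DMEM:F12 with EGF and basic FGF at 20 ng/mL each and 2% B-27. Cells with SMARCB1 restored and normal tissue were not analysed here. Each line is 1 biological sample, so no p-values were computed between lines.

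SLC3A2 is the heavy chain of CD98, a glycoprotein that carries its light chains to the cell surface and also binds integrins. Its light chains include SLC7A5 (LAT1), which exchanges leucine and other large neutral amino acids for glutamine, and SLC7A11 (xCT), which imports cystine in exchange for glutamate. SLC7A1 imports arginine and lysine without a heavy chain, SLC1A5 and SLC1A4 exchange small neutral amino acids, SLC38A1 and SLC38A2 take up glutamine and alanine with sodium, and SLC1A3 (GLAST) and SLC1A2 (GLT-1) clear glutamate in astrocytes. CD98 matters in these lines because its protein has been proposed as a receptor for the envelope of the endogenous retrovirus HML-2, and the question asked of the RNA is how its gene and the carriers around it vary among the lines.

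Between 10265899 and 20520229 reads per library lay on transcripts, and values are given as TPM, a transcript abundance scaled by length and by the total of the library. SMARCB1 itself was at 13.5 to 26.2 TPM, from 114 to 202 reads per library. The study describes all 4 lines as lacking SMARCB1 expression. This sum of RNA over the gene shows neither protein nor which exons carried the reads. The library labelled CHLA 02 lay between the others to an unusual degree. All 263 genes above 20 TPM in CHLA 04 and below 1 TPM in CHLA 06 were above 1 TPM in it, at a median of 0.374 of the CHLA 04 level, and so were all 214 genes with the reverse pattern, at a median of 0.556 of the CHLA 06 level. No gene above 10 TPM in it was below 1 TPM in both CHLA 04 and CHLA 06, against 76 such genes in CHLA 05. Of the same 263 and 214 genes, 16 and 130 were below 1 TPM in CHLA 05. Weighted means of CHLA 04 and CHLA 06 were compared with the library labelled CHLA 02, with the weight chosen on the genes tested. The mean nearest to it, 30% CHLA 04 and 70% CHLA 06, was within 2-fold on TPM + 2 for 97.9% of these genes. The nearest such mean for CHLA 05 was so for 84.1%. Where these values come from was not tested. Without the library labelled CHLA 02, the number of genes called between the highest and lowest line was unchanged for the carriers. The same held for every gene list named here except the neuronal markers.

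**Figure D1:**
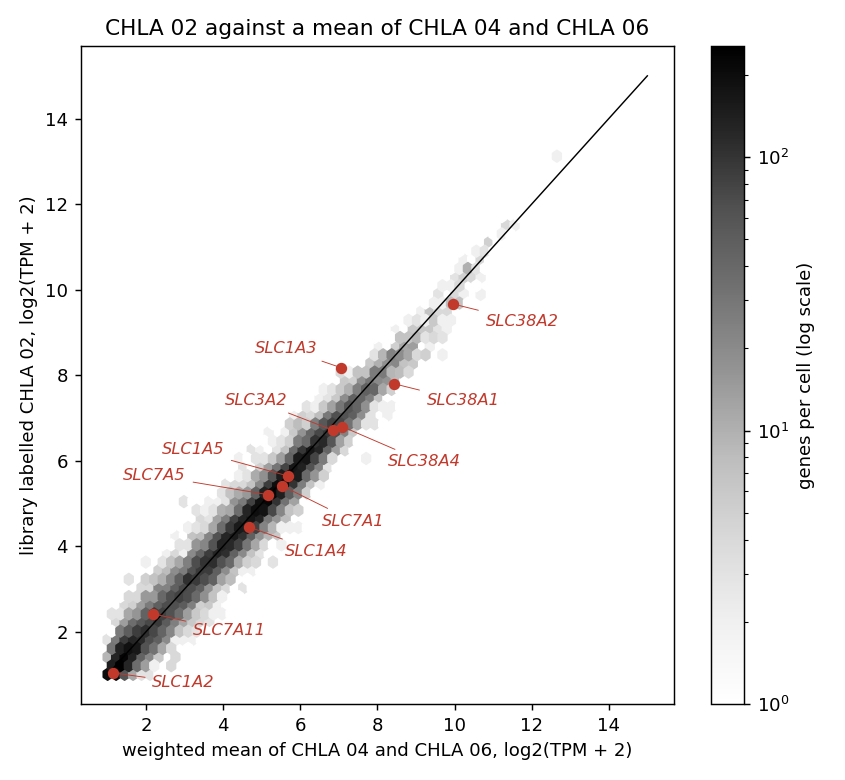
Library labelled CHLA 02 (vertical axis) against the mean of CHLA 04 and CHLA 06 weighted 30% to 70% (horizontal axis), both as log2(TPM + 2), with all 16343 genes tested as grey cells, the 10 carriers and their neighbour SLC38A4 in red and the line of equality in black. SLC1A3 lies farthest from the line, at 286 TPM against a weighted mean of 132 TPM.

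Lines were compared on log2(TPM + 2), with technical replicates averaged. The study also added 2 TPM before taking logarithms, but then normalized by quantiles and took the maximum of technical replicates. A gene was called in a pair of lines when its means differed by at least 1 (2-fold on TPM + 2) and no library of one line overlapped the other. Genes at 1 TPM or more in at least 1 library were tested, which left 16343 genes and 9 of the 10 carriers, all but SLC1A2. Between their highest and lowest line 5 of the 9 were called, namely SLC7A5, SLC1A4, SLC1A3, SLC38A1 and SLC38A2, where 41.9% of all genes tested were called. The same 5 were called with the library labelled CHLA 02 left out, where the background was 40.0%. The median difference between the highest and lowest line was 1.33 over the 9 carriers and 0.86 over all genes tested. The other 4, SLC3A2, SLC7A11, SLC7A1 and SLC1A5, stayed within 2-fold on TPM + 2 over the lines. For SLC7A11 this rests on the added 2 TPM, as its line means were 3.76 TPM in CHLA 04 and 1.14 TPM in CHLA 05. The plot of the 10 genes by line shows the split between these groups.

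**Figure D2:**
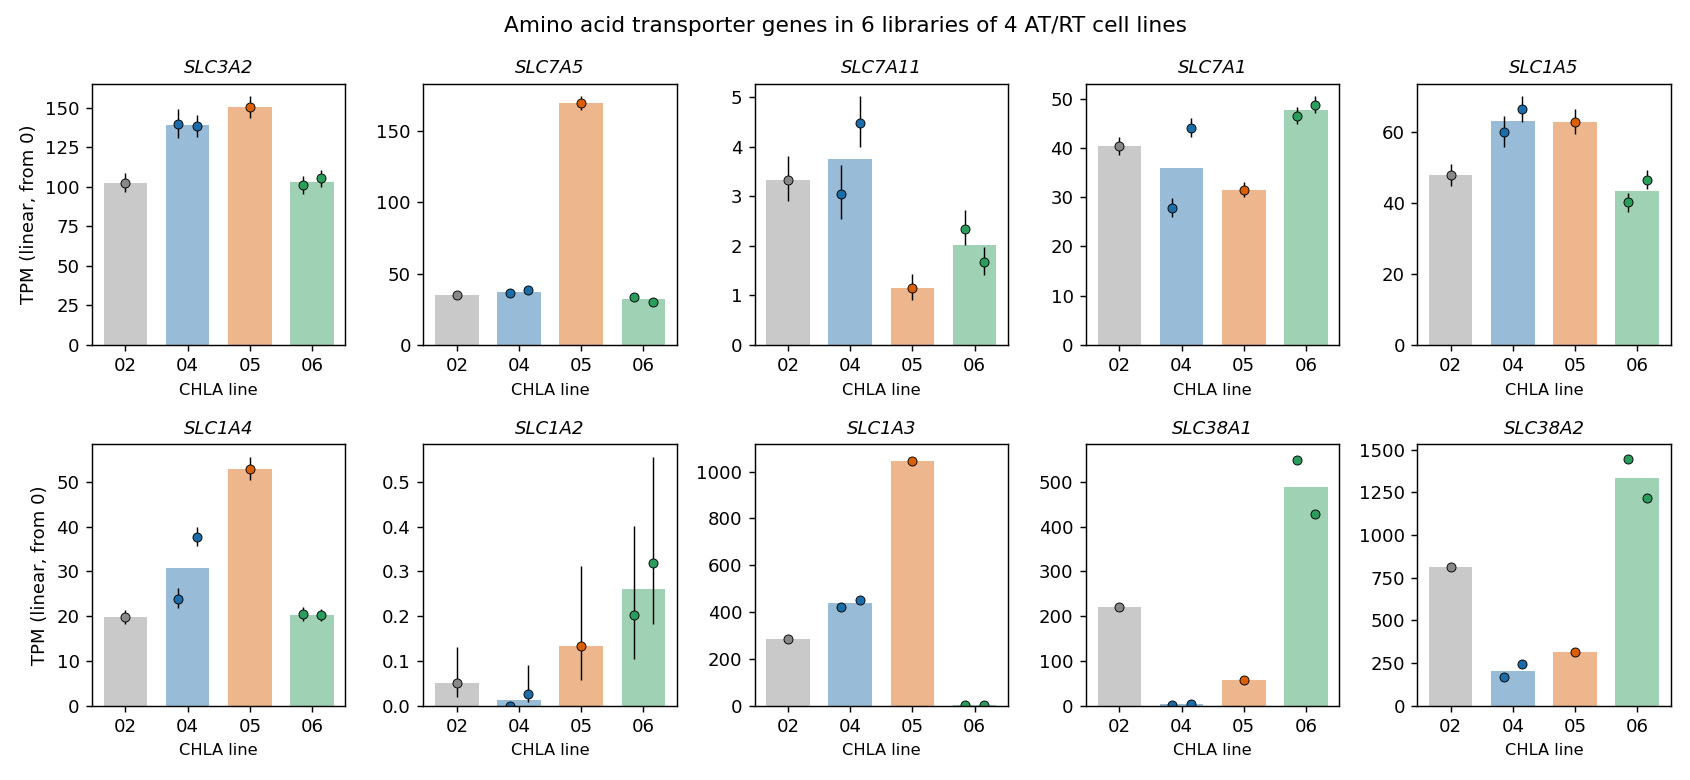
TPM of the 10 carriers by cell line on linear axes that start at 0. Bars are line means, points are libraries and error bars are 95% Wilson intervals of the read counts. SLC3A2 stays between 101 and 150.1 TPM in every library, while SLC1A3 runs from 0.300 to 1047 TPM.

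SLC3A2 was a well expressed gene in every line. It was at 102 TPM in the library labelled CHLA 02, at 139.7 and 138 TPM in CHLA 04, at 150.1 TPM in CHLA 05 and at 101 and 105 TPM in CHLA 06, above at least 90.2% of the genes detected in each library. CHLA 04 (139 ± 0.963 TPM, SD, n = 2 technical replicates) and CHLA 05 were the higher lines, and CHLA 06 (103 ± 3.11 TPM) and CHLA 02 the lower ones. The difference between CHLA 05 and CHLA 02 was 0.54 on the log2 scale, and that between the highest and lowest line was also 0.54 without the library labelled CHLA 02, while CHLA 06 minus CHLA 04 was -0.43. The median gene also lay lower in CHLA 06 than in CHLA 04, by -0.19, and this shift became -0.03 when libraries were scaled by median ratios. Neighbours in the order of levels were read as apart when their gap passed 2 technical SD, with the SD of a gene taken as no smaller than 0.20, the median over all genes. By that rule CHLA 05 and CHLA 04 could not be told apart, nor could CHLA 06 and CHLA 02, and the gap of 0.43 between CHLA 04 and CHLA 06 was just beyond it. That gap was no longer beyond 2 of these SD under the other scalings, where CHLA 06 minus CHLA 04 was -0.23 with median ratios or quantiles and -0.26 without the 100 highest genes, nor with CHLA 06 replicate 1 left out (-0.395).

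The gene lies on the plus strand of chromosome 11, at chr11:62856102-62888875 (GRCh38), with 23 transcripts in the files. RefSeq gives it 3 starts, at positions 62856109, 62880896 and 62881699, and its transcripts were grouped by the nearest start within 500 bp. The windows around these starts are shown because the lines differed in which of them the values were assigned to. Each runs from 250 bases before to 50 after the start, from RefSeq on GRCh38.p14, plus strand, 5′ to 3′. Capitals mark matches, on either strand, to TGATGNAAN (the composite element read by ATF4 with C/EBP factors in the amino acid response) or TGACNNNGC (the core of the antioxidant response element read by NRF2).
SLC3A2 upstream start (chr11:62855859-62856158): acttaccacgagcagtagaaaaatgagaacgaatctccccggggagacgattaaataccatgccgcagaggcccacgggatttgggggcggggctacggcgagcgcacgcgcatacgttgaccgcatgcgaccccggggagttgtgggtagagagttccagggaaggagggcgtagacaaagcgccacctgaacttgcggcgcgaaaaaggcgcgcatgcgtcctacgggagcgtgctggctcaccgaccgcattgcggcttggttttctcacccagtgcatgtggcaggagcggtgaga
SLC3A2 middle start (chr11:62880646-62880945): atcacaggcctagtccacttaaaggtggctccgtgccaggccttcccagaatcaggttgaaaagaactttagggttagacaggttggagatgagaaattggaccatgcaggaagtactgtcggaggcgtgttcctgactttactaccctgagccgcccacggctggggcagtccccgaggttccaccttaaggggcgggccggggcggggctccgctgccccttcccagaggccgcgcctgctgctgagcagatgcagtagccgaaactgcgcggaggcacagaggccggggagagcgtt
SLC3A2 downstream start (chr11:62881449-62881748): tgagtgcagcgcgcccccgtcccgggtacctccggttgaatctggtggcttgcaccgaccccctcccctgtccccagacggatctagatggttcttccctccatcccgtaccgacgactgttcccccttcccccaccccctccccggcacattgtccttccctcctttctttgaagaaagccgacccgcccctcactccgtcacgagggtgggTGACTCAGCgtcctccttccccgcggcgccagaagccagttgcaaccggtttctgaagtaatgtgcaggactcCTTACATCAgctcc

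Both matches fell in the downstream window, with TGACTCAGC beginning 37 bases before the start and CTTACATCA, which matches on the minus strand, lying after it. Among all 35116 windows of this length TGATGNAAN was found in 3.61% and TGACNNNGC in 13.3%. A match is a description of these letters and no binding was measured.

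The 4 transcripts of the upstream start, 24.8 kb before the middle one, varied most between lines. They summed to 17.9 TPM in the library labelled CHLA 02, 38.2 and 39.4 TPM in CHLA 04, 60.7 TPM in CHLA 05 and 11.1 and 21.1 TPM in CHLA 06. CHLA 05 was highest and CHLA 04 next, and the library labelled CHLA 02 lay inside the range of CHLA 06. The 4 transcripts of the middle start, of which ENST00000338663 was the largest, were highest in CHLA 06, with 32.3 and 33.6 TPM there, 24.97 TPM in CHLA 02, 27.9 TPM in CHLA 05 and 26.1 and 18.5 TPM in CHLA 04. The ratio of upstream to middle TPM was thus 1.46 and 2.13 in CHLA 04 and 2.17 in CHLA 05, against 0.343 and 0.626 in CHLA 06 and 0.718 in CHLA 02. Every library of CHLA 04 and CHLA 05 lay above every library of CHLA 06 and CHLA 02, and the technical replicates also differed from each other. The upstream group held 184 to 856 reads per library and the middle group 160 to 490 reads, and how reads shared by isoforms were divided among them was set by the mapping tool.

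The 8 transcripts of the downstream start summed to 17.0 to 24.9 TPM and varied least. The other 7 transcripts, which begin inside the gene, summed to 33.5 to 56.7 TPM and were highest in CHLA 04. Most of that was ENST00000542922, annotated in GENCODE as a retained intron, at 21.8 to 38.6 TPM. Transcripts annotated as protein coding held 48.6% to 64.8% of SLC3A2 TPM, most in CHLA 05.

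**Figure D3:**
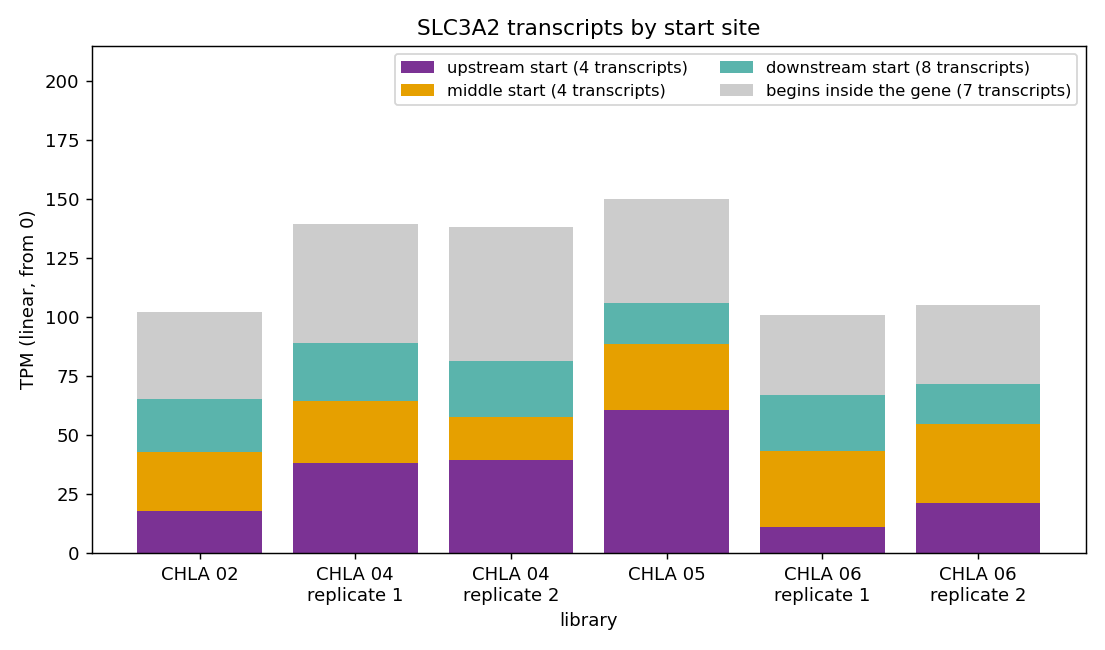
SLC3A2 TPM in each library on a linear axis from 0, stacked by the start of the transcripts. The upstream group (purple) is 60.7 TPM in CHLA 05 and 11.1 and 21.1 TPM in CHLA 06, while the middle group (orange) is lowest in CHLA 04 replicate 2.

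An LTR5_Hs element, the long terminal repeat of the youngest HML-2 proviruses, lies inside SLC3A2 at chr11:62858518-62859476. It is 959 bp long, on the opposite strand, and overlaps no exon of the gene. In the separate mapping to LTR elements it had 1 read in CHLA 06 replicate 2 and 0 reads in the other 5 libraries. Of 7 LTR elements inside SLC3A2, 2 had any read.

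The genes whose pattern over the 4 lines was most like that of SLC3A2, among 8561 at 10 TPM or more in every line, were SDHAF1, SRP68, KAT7, UBE2C and TXNL4A, with a root mean square difference of 0.02 log2 units each. These differences are smaller than the technical spread, so the order among such close genes is not resolved.

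SLC7A5, the main LAT1 light chain, was highest in CHLA 05 and even among the other lines. It was at 34.9 TPM in the library labelled CHLA 02, 36.4 and 38.4 TPM in CHLA 04, 169.9 TPM in CHLA 05 and 33.6 and 30.3 TPM in CHLA 06. The CHLA 05 library stood alone and the other 5 lay between 30.3 and 38.4 TPM. On the log2 scale CHLA 05 was higher by 2.13 than CHLA 04, by 2.22 than CHLA 02 and by 2.34 than CHLA 06, a 5.07-fold difference in TPM + 2. The other 3 lines could not be told apart by the technical spread. The gene lies on the minus strand at chr16:87830023-87869488 and nearly all of its TPM came from ENST00000261622, with 167.4 TPM in CHLA 05. It has near-identical pseudogenes, SLC7A5P1 and SLC7A5P2, which were not analysed here, and whether reads were shared with them was not tested. The window around its start is shown because CHLA 05 differed most in this light chain. It is on the minus strand, printed 5′ to 3′ on that strand, and capitals mark CACGTG, the E-box read by MYC and related factors, and TGACNNNGC.
SLC7A5 start (chr16:87869458-87869757): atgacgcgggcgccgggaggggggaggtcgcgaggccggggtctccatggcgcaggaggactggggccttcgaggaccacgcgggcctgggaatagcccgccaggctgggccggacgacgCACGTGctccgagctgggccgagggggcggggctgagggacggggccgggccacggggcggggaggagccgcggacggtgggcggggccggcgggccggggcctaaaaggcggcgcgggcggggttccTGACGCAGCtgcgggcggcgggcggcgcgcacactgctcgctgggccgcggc

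CACGTG reads the same on both strands and was found in 7.26% of all windows. It begins 130 bases before the SLC7A5 start, and TGACGCAGC begins 2 bases before it. Over the windows of the carriers, of which SLC7A11 and SLC1A2 had none, the E-box was found in 2 of 16, TGACNNNGC in 5 of 16 and TGATGNAAN in 6 of 16, the last in windows of SLC3A2, SLC7A1, SLC1A3, SLC1A4, SLC1A5 and SLC38A1. Several windows belong to the same gene.

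The balance of heavy and light chain RNA followed SLC7A5. The ratio of SLC3A2 to SLC7A5 TPM was 0.883 in CHLA 05 and 2.94 to 3.84 in the other 5 libraries. SLC7A6, a light chain that exchanges cationic for neutral amino acids, was the other abundant partner, with 33.4 TPM in CHLA 02, 33.6 and 34.5 TPM in CHLA 04, 52.5 TPM in CHLA 05 and 58.5 and 55.0 TPM in CHLA 06. It was not called between any lines. Of the summed TPM of the 6 light chains of SLC3A2, SLC7A5 made up 72.5% in CHLA 05 and SLC7A6 61.0% and 61.9% in CHLA 06, while in CHLA 02 and CHLA 04 the 2 chains each held between 44.1% and 49.3%. SLC7A8 (LAT2) and SLC7A10 (Asc-1) were called among the other 7 CD98 and rBAT family genes, of which 4 were tested, beside 41.9% of all genes. SLC7A8 was at 4.97 TPM and SLC7A10 at 5.51 TPM in CHLA 05, against at most 1.38 and 0.753 TPM in other libraries.

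SLC7A11, the cystine light chain, was low in every line. It was at 3.33 TPM in the library labelled CHLA 02, 3.04 and 4.48 TPM in CHLA 04, 1.14 TPM in CHLA 05 and 2.34 and 1.67 TPM in CHLA 06, from 72 to 287 reads. CHLA 05 was the lowest library and CHLA 04 the highest line, but no neighbours in the order differed beyond the technical spread. The difference of -0.86 between CHLA 05 and CHLA 04 became -1.13 with a pseudocount of 1 TPM, where it was called, as was that between CHLA 05 and CHLA 02 (-1.02). It was also called with CHLA 04 replicate 1 left out (-1.04). The ratio of SLC3A2 to SLC7A11 TPM ran from 30.7 to 131.

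Of 15 genes of cystine use, glutathione and the NRF2 response, all were tested and 8 were called between the highest and lowest line, beside 41.9% of all genes. NQO1, a quinone reductase and NRF2 target, was at 22.2 and 22.8 TPM in CHLA 04, against 276.6 TPM in CHLA 02, 491 TPM in CHLA 05 and 218 and 237 TPM in CHLA 06. GCLC, the catalytic subunit of glutathione synthesis, was at 44.2 TPM in CHLA 05 and 11.5 to 27.5 TPM elsewhere. CBS, which feeds homocysteine into cysteine, was highest in CHLA 04 (244.7 and 174 TPM) and lowest in CHLA 06 (59.4 and 76.3 TPM). NFE2L2, which encodes NRF2, was at 159.9 and 188 TPM in CHLA 04 and 166.7 TPM in CHLA 05, and lowest in CHLA 06 (81.5 and 69.7 TPM). The called genes thus had no common order over the lines.

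SLC7A1 (CAT1), the cationic carrier, was at 40.4 TPM in the library labelled CHLA 02, 27.8 and 44.1 TPM in CHLA 04, 31.5 TPM in CHLA 05 and 46.6 and 48.8 TPM in CHLA 06. The replicates of CHLA 04 spanned CHLA 02 and CHLA 05, and no neighbours in the order differed beyond the technical spread. ENST00000380752 made up 97.6% of its TPM on average. Of the 4 other cationic and orphan SLC7 genes 2 were tested, and SLC7A3 was called, beside 41.9% of all genes. SLC7A3 was at 6.13 and 6.80 TPM in CHLA 04, 4.75 TPM in CHLA 02, 1.03 TPM in CHLA 05 and 0.116 and 0.105 TPM in CHLA 06.

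SLC1A5 (ASCT2), the sodium-dependent neutral amino acid exchanger that supplies glutamine to LAT1, was at 47.8 TPM in the library labelled CHLA 02, 59.96 and 66.3 TPM in CHLA 04, 62.8 TPM in CHLA 05 and 40.1 and 46.5 TPM in CHLA 06. CHLA 04 and CHLA 05 lay above CHLA 02 and CHLA 06 without overlap, by at most 0.53, and no neighbours in the order differed beyond 2 technical SD.

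SLC1A4 (ASCT1), which exchanges alanine, serine and cysteine, was at 19.8 TPM in the library labelled CHLA 02, 23.9 and 37.8 TPM in CHLA 04, 52.9 TPM in CHLA 05 and 20.4 and 20.2 TPM in CHLA 06. CHLA 05 was above every other library. It was called against CHLA 02 (difference 1.33) and CHLA 06 (1.30 higher), and against CHLA 04 the difference was 0.78. With CHLA 04 replicate 2 left out that difference was 1.09 and would be called, and with replicate 1 left out it was 0.46. The ratio of SLC1A5 to SLC1A4 was 1.19 in CHLA 05 and 1.76 to 2.51 in the other libraries.

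SLC1A3 (GLAST), the glutamate carrier of radial glia and astrocytes, had the widest range of the 10 genes. It was at 286 TPM in the library labelled CHLA 02, 421 and 453 TPM in CHLA 04, 1047 TPM in CHLA 05 and 0.300 and 1.61 TPM in CHLA 06. The 2 CHLA 06 libraries held 9 and 23 reads, against 3733 to 16074 in the others. CHLA 05 was higher than CHLA 06 by 8.51 on the log2 scale, CHLA 04 by 7.25 and CHLA 02 by 6.64, and CHLA 05 was also called above CHLA 04 (1.26) and CHLA 02 (1.86). Both CHLA 04 libraries lay above CHLA 02, by 0.61 on the log2 scale, which was 1.85 technical SD and so not beyond 2. That SD of 0.33 pools CHLA 04 with the few reads of CHLA 06, so it is a poor measure of this gap. The value in the library labelled CHLA 02 was 1.11 log2 units above the weighted mean of CHLA 04 and CHLA 06, whereas the other 9 carriers lay between -0.63 and 0.23 of it. Among the 16 transcripts ENST00000381918 held the largest share on average, with 488 TPM in CHLA 05, 125.0 and 174.7 TPM in CHLA 04 and 92.1 TPM in CHLA 02. The gene lies at chr5:36606355-36688334 on the plus strand.

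GFAP and the sum of 4 astrocyte markers had the order of SLC1A3 over the lines, while AQP4, S100B and ALDH1L1 did not. The summed TPM of GFAP, AQP4, ALDH1L1 and S100B was 209 in CHLA 05. It reached 97.2 and 87.5 in the replicates of CHLA 04 and 58.0 in CHLA 02, against 0.503 and 0.0855 for CHLA 06. GFAP was at 150.6 TPM in CHLA 05, 45.3 and 47.9 TPM in CHLA 04, 23.9 TPM in CHLA 02 and 0.0419 and 0.0379 TPM in CHLA 06. All 4 markers were below 1 TPM in CHLA 06, as were 2 of the 4 in CHLA 02 and CHLA 04. AQP4 was at 34.1 to 51.9 TPM outside CHLA 06, with the highest line mean in CHLA 04. S100B was at 15.2 TPM in CHLA 05 and at most 0.147 TPM elsewhere. ALDH1L1 was not tested, with a line mean of at most 0.319 TPM. The part of these markers in the SLC1A3 difference was not tested, and in bulk RNA fewer cells of a type and less RNA per cell cannot be told apart.

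SLC1A2 (GLT-1), the other astrocyte glutamate carrier, was at or near the limit of detection in every line. It was at 0.0511 TPM in CHLA 02, 0 and 0.0250 TPM in CHLA 04, 0.134 TPM in CHLA 05 and 0.204 and 0.318 TPM in CHLA 06, from 0 to 12 reads. For CHLA 04 replicate 1 a count of 0 allows up to 0.0607 TPM (3 reads on the longest transcript of 11696 bp). Of the 3 other SLC1 genes 2 were tested, and SLC1A1 (EAAC1), the neuronal glutamate carrier, was called, beside 41.9% of all genes. SLC1A1 was at 7.70 TPM in CHLA 05, 1.84 and 2.46 TPM in CHLA 04, 0.763 TPM in CHLA 02 and 0.490 and 1.04 TPM in CHLA 06.

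SLC38A2 (SNAT2) was the most abundant carrier in CHLA 02 and CHLA 06. It was at 809 TPM in the library labelled CHLA 02, 165 and 245 TPM in CHLA 04, 312.6 TPM in CHLA 05 and 1443 and 1218 TPM in CHLA 06. CHLA 06 was highest, then CHLA 02, CHLA 05 and CHLA 04, with every gap beyond 2 technical SD, the last by little. CHLA 06 was called above CHLA 04 (2.71, or 6.54-fold in TPM + 2) and CHLA 05 (2.08), and CHLA 02 above CHLA 04 (2.00) and CHLA 05 (1.37). Even in CHLA 04 the gene lay above at least 93.6% of the genes detected. Its transcript ENST00000256689 held 66.5% of its TPM on average. The window around its single RefSeq start, on the minus strand and printed 5′ to 3′ on that strand, is shown as that of the most abundant carrier, and none of the 3 motifs (TGATGNAAN, TGACNNNGC, CACGTG) was found in these letters.
SLC38A2 start (chr12:46372724-46373023): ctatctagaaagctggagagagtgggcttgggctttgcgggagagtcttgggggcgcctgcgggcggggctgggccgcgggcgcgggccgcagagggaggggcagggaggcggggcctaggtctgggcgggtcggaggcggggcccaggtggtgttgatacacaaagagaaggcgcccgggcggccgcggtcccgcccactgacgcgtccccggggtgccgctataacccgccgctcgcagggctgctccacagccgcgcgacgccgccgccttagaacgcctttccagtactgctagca

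SLC38A1 (SNAT1) had the same order with a wider range. It was at 220.4 TPM in the library labelled CHLA 02, 2.07 and 2.74 TPM in CHLA 04, 56.2 TPM in CHLA 05 and 549.5 and 428 TPM in CHLA 06. The 4 lines did not overlap, and all 6 pairs were called, including the 3 that leave out the library labelled CHLA 02. CHLA 06 was higher than CHLA 04 by 6.79 on the log2 scale, a 111-fold difference in TPM + 2, than CHLA 05 by 3.06 and than CHLA 02 by 1.13. With CHLA 06 replicate 1 left out the difference from CHLA 02 was 0.95 and would not be called. The ratio of SLC38A2 to SLC38A1 TPM was 79.6 and 89.5 in the replicates of CHLA 04, against 2.63 to 5.56 in the other 4 libraries. The main transcript was ENST00000398637, with 448 and 361.7 TPM in CHLA 06 and 1.29 and 1.28 TPM in CHLA 04.

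SLC38A1 and SLC38A2 are neighbours on the minus strand of chromosome 12, 88171 bp apart, at chr12:46183063-46270017 and chr12:46358189-46372867. The next gene of the family, SLC38A4 (SNAT4), follows 391893 bp farther at chr12:46764761-46832408. SLC38A4 was at 108.9 TPM in the library labelled CHLA 02, 0 and 0.155 TPM in CHLA 04, 0.0404 TPM in CHLA 05 and 223.7 and 159.9 TPM in CHLA 06. It therefore had the order of the other 2 except that it was near 0 in CHLA 05 as well as in CHLA 04. Its antisense gene SLC38A4-AS1 was at 4.74 and 4.02 TPM in CHLA 06, 2.41 TPM in CHLA 02 and at most 1.14 TPM elsewhere. Of the 9 other SLC38 genes 7 were tested and 2 called, beside 41.9% of all genes. These were SLC38A4 and SLC38A3, the latter highest in CHLA 05 at 4.91 TPM.

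The stretch of 1.5 Mb on either side of SLC38A2 overlapped 17 tested genes, SLC38A1 and SLC38A2 included, of which 7 were called higher in CHLA 06 than in CHLA 04, where 12.4% of all genes tested were, and 1 was called lower. Against CHLA 05, 7 were called higher, where 9.69% of all genes were, and 1 lower. Both counts of 7 include SLC38A1, SLC38A2, SLC38A4 and SLC38A4-AS1. These neighbours were chosen after the values were seen, around a gene already called, so the counts are no test of the stretch. SCAF11, a splicing factor gene on the other side of SLC38A1, was at 682 and 411 TPM in CHLA 06, 252 TPM in CHLA 02, 96.7 TPM in CHLA 05 and 79.7 and 89.0 TPM in CHLA 04. ARID2, a SWI/SNF subunit gene next to SCAF11, was at 66.4 and 65.1 TPM in CHLA 06 and 41.7 to 61.4 TPM in the other libraries, and was not called. AMIGO2 and RPAP3, beyond SLC38A4, were not called either. Farther out on that side, HDAC7 (1.96) and RAPGEF3 (1.17) were called higher in CHLA 06 than in CHLA 05 but not CHLA 04. On the far side of ARID2, ANO6 (1.78) and PLEKHA8P1 (1.04) were called higher in CHLA 06 than in CHLA 04 but not CHLA 05. The gene called lower was NELL2 both times. The higher values thus did not extend evenly over the stretch.

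**Figure D4:**
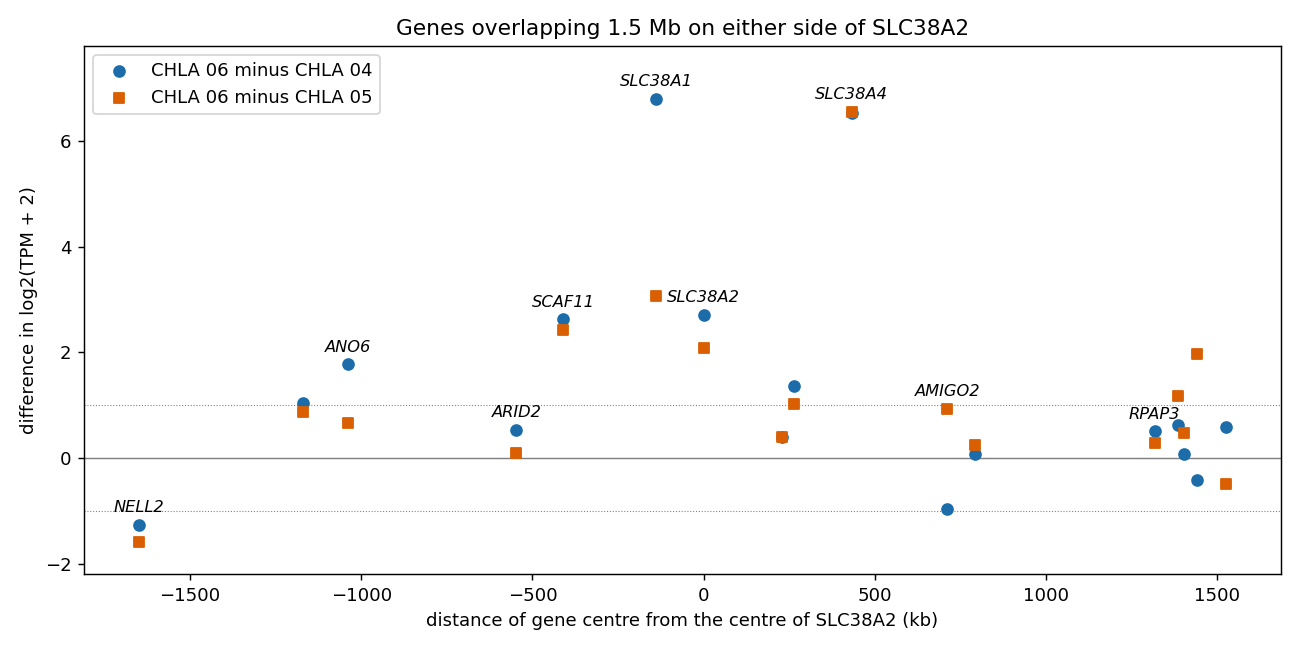
Difference in log2(TPM + 2) of CHLA 06 from CHLA 04 (blue circles) and from CHLA 05 (orange squares) for the 17 tested genes overlapping 1.5 Mb on either side of SLC38A2, by distance of the gene centre in kb. SLC38A1, SLC38A2, SLC38A4 and SCAF11 stand above 2 in both comparisons, while ARID2 lies between SCAF11 and ANO6 below 1.

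LTR elements inside SLC38A1 had reads in the same lines. A group of 6 MER41 fragments at chr12:46253205-46258347, on the strand of the gene and covering 4524 bp, held 1161 and 1054 reads in CHLA 06 and 567 reads in the library labelled CHLA 02. CHLA 05 had 96 reads there, and the replicates of CHLA 04 had 0 and 6. For every 100 reads on SLC38A1 transcripts this came to 3.84 to 6.38 MER41 reads in the 5 libraries that had any. The fragments are intronic except for 1 exon of 123 bp of ENST00000439706, a transcript at 8.76 and 11.8 TPM in CHLA 06, 4.96 TPM in CHLA 02, 1.29 TPM in CHLA 05 and 0.138 and 0 TPM in CHLA 04. The reads were not particular to MER41. An LTR8 element of 728 bp elsewhere inside SLC38A1, also on its strand, held 198 and 173 reads for the CHLA 06 replicates. Its count was 100 for CHLA 02, 18 for CHLA 05 and at most 1 for CHLA 04. Its TPM for the CHLA 06 replicates was 279 and 228, beside means of 261 and 219 over the MER41 fragments. Of the other carriers, SLC7A5 had an LTR22B element with 0 to 21 reads, most in CHLA 05. No element of the rest had more than 6 reads in a library.

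Pair by pair, the called carriers were few and recurrent. CHLA 04 and CHLA 02 differed in 2 of 9 tested carriers, SLC38A1 and SLC38A2, with a background of 16.5% of all genes. CHLA 06 and CHLA 02 differed in 2, SLC1A3 and SLC38A1, with a background of 9.32%. CHLA 05 and CHLA 04 differed in 3, SLC7A5, SLC1A3 and SLC38A1, each higher in CHLA 05, with a background of 16.6%. CHLA 06 and CHLA 04 differed in 3, SLC1A3, SLC38A1 and SLC38A2, with a background of 29.4%. CHLA 05 differed from CHLA 02 in 5 and from CHLA 06 in 5, each time higher in SLC7A5, SLC1A4 and SLC1A3 and lower in SLC38A1 and SLC38A2, with backgrounds of 19.6% and 25.9%. These comparisons share libraries, so they are not separate evidence. The library labelled CHLA 02 lay between the means of CHLA 04 and CHLA 06 for 8 of the 10 carriers and for 61.2% of all genes tested, and CHLA 05 for 4 carriers and 44.9% of genes. Both counts of carriers include SLC1A2, which was too low to be tested.

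**Figure D5:**
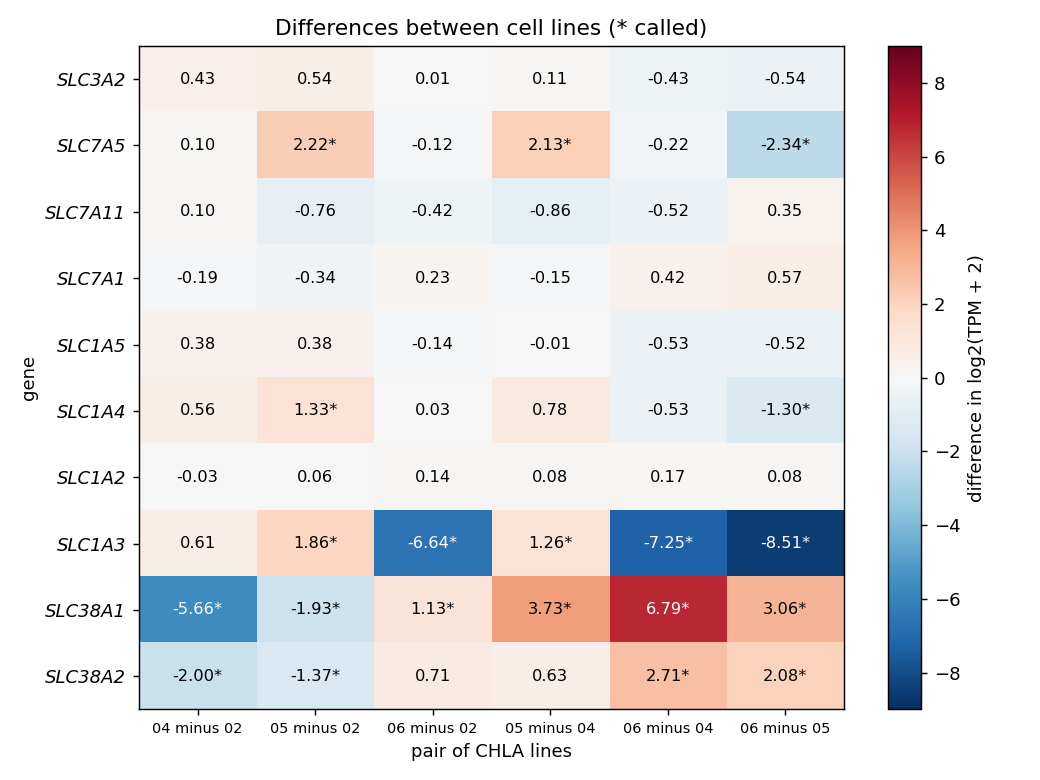
Differences in log2(TPM + 2) of the 10 carriers (rows) in the 6 pairs of cell lines (columns), with red for higher in the line named first and * for a called difference. SLC1A3 spans -8.51 to 1.86 and SLC38A1 -5.66 to 6.79, while SLC3A2 stays between -0.54 and 0.54.

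Summed over the 10 genes, carrier RNA was 1564 TPM in the library labelled CHLA 02, 879 and 1030.2 TPM in CHLA 04, 1884 TPM in CHLA 05 and 2237 and 1901 TPM in CHLA 06. The make-up differed more than the sum. SLC38A2 held 64.5% and 64.1% of it in CHLA 06 and 51.7% in CHLA 02, whereas SLC1A3 held 55.6% in CHLA 05 and 47.9% and 43.97% in CHLA 04.

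Among 16 other carriers of the SLC43, SLC36, SLC6 and SLC16 families 8 were tested and 5 called, beside 41.9% of all genes. SLC6A6, the taurine carrier, was at 171 TPM in CHLA 05, 48.7 TPM in CHLA 02, 59.4 and 51.5 TPM in CHLA 04 and 18.4 and 24.5 TPM in CHLA 06. SLC6A9 (GlyT1), which takes up glycine, was lowest in CHLA 06 at 4.09 and 3.255 TPM and was at 18.3 to 35.9 TPM elsewhere. SLC43A2 (LAT4) was highest in CHLA 06 at 42.5 and 26.9 TPM.

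The enzymes that use the carried amino acids were compared in the same way. Of 11 enzymes of glutamine and glutamate 10 were tested and 9 called between the highest and lowest line, beside 41.9% of all genes. GAD1, which makes GABA from glutamate, was at 410 and 282 TPM in CHLA 06, 209 TPM in CHLA 02, 64.2 TPM in CHLA 05 and 8.43 and 10.2 TPM in CHLA 04, the order of SLC38A1. GOT1 (cytosolic aspartate aminotransferase) was highest in CHLA 06 at 116 and 96.0 TPM, and PPAT, which uses glutamine for purine synthesis, in CHLA 05 at 74.9 TPM.

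The amino acid response, in which the kinase GCN2 and the factor ATF4 raise carriers and synthetases when amino acids run short, gave no common direction. ATF4 itself was at 197 to 284 TPM and was not called. Of 25 genes tested 9 were called, beside the 41.9% of all genes. PCK2 was highest in CHLA 06 (43.8 and 42.4 TPM) and lowest in CHLA 04 (3.15 and 2.66 TPM). ALDH1L2 was at 14.3 and 10.9 TPM in CHLA 04 and listed at 0 in CHLA 05, NUPR1 was at 10.7 and 9.94 TPM in CHLA 06 and at most 0.215 TPM in CHLA 04 and CHLA 05, and ATF3 was highest in CHLA 05 at 24.2 TPM.

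Of 24 genes of amino acid sensing by mTORC1, the kinase complex that leucine and arginine activate at the lysosome, 7 were called, beside 41.9% of all genes. SESN3, a stress-induced inhibitor of the pathway, was at 60.4 and 50.6 TPM in CHLA 06, 40.3 TPM in CHLA 02, 27.8 TPM in CHLA 05 and 3.48 and 2.35 TPM in CHLA 04. SESN1 and RRAGD, a Rag GTPase, were highest in CHLA 05 at 97.7 and 21.3 TPM. CASTOR2, of the arginine sensor family, was at 31.2 and 21.6 TPM in CHLA 04 and 8.23 and 7.09 TPM in CHLA 06.

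Of the 4 proteins that associate with CD98 at the membrane, 3 were tested and 1 was called, beside 41.9% of all genes. ITGB1 was at 793 to 1479 TPM and BSG (basigin) at 352 to 669 TPM, neither called, while LGALS3 (galectin-3) was at 0.508 TPM in CHLA 05 and 110.5 to 176 TPM in every other library. Its difference between the highest and lowest line was 6.15, and 5.63 without the library labelled CHLA 02. Among 13 retroviral envelope genes and receptors 9 were tested and 6 called, beside 41.9% of all genes. Those named by the rule were all receptors for retroviral envelopes. XPR1, the phosphate exporter, was at 32.5 and 36.7 TPM in CHLA 06 and 113 to 133 TPM elsewhere. SLC20A1 was at 319.8 TPM in CHLA 02, 244 and 327 TPM in CHLA 06 and 62.7 to 96.8 TPM in CHLA 04 and CHLA 05, a difference of 2.01 between the highest and lowest line and of 1.83 without the library labelled CHLA 02. SLC20A2 was highest in CHLA 06 (78.8 and 69.4 TPM), and MFSD2A, the receptor of syncytin-2, was at 12.04 and 28.2 TPM in CHLA 04 and 14.04 TPM in CHLA 05, and lowest in CHLA 06 (1.498 and 1.304 TPM). Beside these receptors SLC3A2 was at 101 to 150.1 TPM in every library and was not called.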

How the data were processed

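Libraries were made with a stranded total RNA protocol and sequenced on an Illumina instrument. The submitters' processing notes name CASAVA 1.8.2, FastQC and Trimmomatic, and the authors used CLCbio Genomics Workbench to map reads to Ensembl release 82 transcripts (173113) on GRCh38. The deposited values are TPM per transcript, without logarithm or pooling, and TPM per RepeatMasker LTR element (720177) from a separate mapping, on a scale of its own. Whether counting used strand is not given in the sources used here.

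Gene TPM was the sum over a gene's transcripts. TPM multiplied by length fell on whole multiples of 1 read for at least 99.25% of values (tolerance 0.02 reads), which gave the reads, and 95% Wilson intervals from them cover counting error only. Python 3.11.15, numpy 2.4.6, pandas 2.3.3 and statsmodels 0.14.6 were used. Calls followed the rule in the text on log2(TPM + 2), with the pseudocount of the study. SD is between technical replicates. The spread between cultures was not measured. Transcript types came from GENCODE 44, where all 91 transcripts of the carriers were found, 64 with the same start and end.

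The carriers and gene lists were chosen with earlier results of these data known. Of each list, every called gene was named if there were 4 or fewer, otherwise the 4 with the largest difference among those at 10 TPM or more in a line. Some results that this rule covers are not reported here. Alternatives were other pseudocounts, scalings, filters and folds, the maximum of replicates, the main transcript and leaving out each replicate. Leaving out the library labelled CHLA 02 was chosen after seeing the data. Marker lists other than astrocyte are given after the alternatives.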

Additional observations from a re-analysis of the deposited data

How the results depend on the processing

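No paired analysis was possible because the results come from no test and the replicate numbers of CHLA 04 and CHLA 06 only number technical replicates. Over 54 differences of the 9 tested carriers between lines and 11 alternatives each, no called difference changed sign. Only the other scalings and the main transcript could have changed it. A call requires libraries that do not overlap, which fixes the sign under other pseudocounts, the maximum of replicates and leaving out a replicate. The 16 sign changes were in 8 uncalled differences of at most 0.19, among them SLC3A2 between CHLA 05 and CHLA 04, which ran from -0.19 with the most abundant transcript only to 0.20. SLC3A2 stayed lower in CHLA 06 than in CHLA 04 throughout, by -0.55 to -0.23. The number of carriers called changed by over 1.5 times in 4 cases. A 3-fold threshold left 3 between CHLA 05 and CHLA 02 and 1 between CHLA 06 and CHLA 02, and a 1.5-fold threshold gave 6 between CHLA 05 and CHLA 04. Leaving out 1 technical replicate gave 1 to 2 between CHLA 06 and CHLA 02, the lower number without CHLA 06 replicate 1. Between the highest and lowest line, 4 to 6 carriers were called under every alternative. At this depth SLC1A2, and SLC1A3 in CHLA 06, rest on few reads, and the spread between cultures of a line remains unmeasured.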

Other observations

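Markers of other cell types were measured beside the carriers. By the same rule 41.9% of all genes tested were called between the highest and lowest line. Of 4 fibroblast markers all were tested and called, with COL1A1 at 600.3 and 459 TPM in CHLA 06, 387 TPM in CHLA 02, 11.5 TPM in CHLA 05 and 2.76 and 0.679 TPM in CHLA 04, and DCN at 42.9 and 30.2 TPM in CHLA 06 and 20.1 TPM in CHLA 02, whereas COL1A2 (7.12 TPM) and PDGFRA (24.9 TPM) were highest in CHLA 05. The fibroblast markers summed to 646 and 492 TPM in CHLA 06, 412 TPM in CHLA 02, 43.5 TPM in CHLA 05 and 21.2 and 13.97 TPM in CHLA 04, the order of SLC38A1. Most of the sum in CHLA 06 was COL1A1. COL1A2 (0 and 0.0259 TPM) and PDGFRA (2.65 and 2.57 TPM) had their lowest level in CHLA 06. The part of these markers in the SLC38A1 difference was not tested. Of 4 neural progenitor markers all were called, with PAX6 at 36.9 TPM in CHLA 05 and 0.604 and 0.937 TPM in CHLA 06, and VIM at 4629 to 19464 TPM over the libraries and highest in CHLA 06. NES (27.6 TPM) and SOX2 (4.03 TPM) were highest in CHLA 05. Neuronal SNAP25 was at 3.07 and 3.35 TPM in CHLA 04 and at 0 in CHLA 06, and neither identifier of TUBB3 gave a call that held without the library labelled CHLA 02. The main one, ENSG00000258947, was at 204.7 to 455 TPM and was not called, and the minor one, ENSG00000198211, was called with 30.4 TPM in CHLA 02 and at most 10.55 TPM elsewhere. Among oligodendrocyte genes MBP was at 31.9 TPM in CHLA 02, 23.9 and 22.3 TPM in CHLA 06 and 0 in CHLA 04 (a difference of 4.08, and of 3.65 without the library labelled CHLA 02), and OLIG2 was at 14.2 TPM in CHLA 05. Of the 4 immune markers CD68 alone was tested and was called, with 6.34 and 22.6 TPM in CHLA 06 and 6.36 TPM in CHLA 02 against 0.236 to 0.897 TPM in CHLA 04 and CHLA 05. PTPRC, AIF1 and CSF1R had line means of at most 0.112 TPM. CD68 was thus higher in CHLA 06 and CHLA 02, as SLC38A1 and SLC38A2 were. CHLA 05 and CHLA 04, which differed in SLC38A1, overlapped in CD68. The part of CD68 in the SLC38A1 and SLC38A2 differences was not tested. Of the 4 endothelial markers VWF alone was tested and was called, with 3.70 and 2.06 TPM in CHLA 04 and at most 0.778 TPM elsewhere.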
